A study of Mus musculus with 6 samples.

Results

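The AP-1 genes of the Fos and Jun families were followed through open chromatin in their surroundings, in NMuMG cells, an epithelial line from normal mouse mammary gland. The set comprised Fos, Fosb, Fosl1, Fosl2, Jun, Junb, Jund and Atf3, each represented by a window of 110 to 140 kb on the mouse build mm9, 930 kb in all. A region belonged to the set when it overlapped one of these windows, whatever its values. Of 42310 regions called in cells given the vehicle DMSO, 93 lay in the windows, as did 65 of 25922 regions after 6 h and 81 of 38422 after 30 h of BRM014, an inhibitor of the SWI/SNF ATPases. Accessibility was measured by ATAC-seq, which reads where the Tn5 transposase can insert adapters into DNA. The cells were labelled wild type, grew in medium with serum and insulin in every group, and formed 3 groups of 2 biological replicates. The extraction protocol also names TGFβ, which no sample label carries. The length of the DMSO treatment is known only from the name of its list, as 30 h, so the 6 h cells had no vehicle list of their own time. One list was deposited per group from both replicates, so no spread between replicates could be computed and no difference between treatments was tested.

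AP-1 is a dimer of bZIP proteins that binds DNA through paired basic regions and leucine zippers. Fos proteins dimerise with Jun proteins but not among themselves, whereas Jun proteins also pair with each other and with ATF proteins. Several of these genes are immediate early genes, transcribed within minutes of serum, growth factor or stress signals, and AP-1 has been reported to work with SWI/SNF complexes at enhancers. A window can also hold regions of its neighbours. In RefSeq's GRCm38 table, used only for names and neighbours, Fos and Jun had 0 protein-coding genes within 55 kb. Fosl2 had 1 (Babam2) and Atf3 had 1 (Fam71a). Jund had 6, among them Lsm4 and Pde4c, Fosb had 7, among them Ercc1 and Vasp, and Junb had 8, among them Prdx2 and Hook2. Fosl1 had 11, among them Drap1, Fibp and Cfl1. The lists carry no gene names, and where each gene starts within its mm9 window was not used here. Regions are therefore named by position, and none is called a promoter or assigned to a gene.

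The 250 bases upstream of the RefSeq start of 3 of the genes are shown. Jun and Atf3 were chosen because each carries a site of the AP-1 or ATF kind near its start. Fos, where none of the exact AP-1 or ATF spellings searched was found, is shown for comparison. Only exact matches were counted, so a partial one, such as tgacgta in Fos, is not marked. They are printed 5′ to 3′ on the strand of the gene from build GRCm38.p6, whose coordinates are not comparable with the mm9 positions of the regions. Capitals mark matches, on either strand, to the GC box GGGCGG, the TATA box TATAAA, the variant AP-1 site TGACATCA known from Jun, and the ATF/CRE-like site TTACGTCA known from Atf3.
Fos (chr12:85473640-85473889, plus strand): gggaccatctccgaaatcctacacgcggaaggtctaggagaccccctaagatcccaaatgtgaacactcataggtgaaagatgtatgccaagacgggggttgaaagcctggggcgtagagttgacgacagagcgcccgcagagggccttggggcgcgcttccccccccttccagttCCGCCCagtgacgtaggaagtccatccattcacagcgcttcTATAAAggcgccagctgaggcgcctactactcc
Jun (chr4:95052223-95052472, minus strand): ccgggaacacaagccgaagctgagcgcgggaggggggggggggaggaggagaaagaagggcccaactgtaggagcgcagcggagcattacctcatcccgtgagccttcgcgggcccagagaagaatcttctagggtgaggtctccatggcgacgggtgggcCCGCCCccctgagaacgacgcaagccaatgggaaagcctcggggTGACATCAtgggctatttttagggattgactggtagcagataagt
Atf3 (chr1:191183334-191183583, minus strand): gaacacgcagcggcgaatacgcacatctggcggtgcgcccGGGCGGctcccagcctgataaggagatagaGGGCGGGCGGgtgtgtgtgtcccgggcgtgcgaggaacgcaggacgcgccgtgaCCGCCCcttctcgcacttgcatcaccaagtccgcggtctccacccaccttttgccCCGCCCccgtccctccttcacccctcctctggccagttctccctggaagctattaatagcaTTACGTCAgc
TTACGTCA was found in Atf3 alone of the 7 genes with an entry, 10 bases upstream of the start, and in 0.447% of the 32851 upstream sequences of the table. TGACATCA was found in Jun alone, 45 bases upstream, and in 2.93% of all. TATAAA was found in Fos alone, 33 bases upstream, and in 12.4% of all. The GC box was in 5 of the 7 (Fos, Fosb, Fosl2, Jun and Atf3) and in 32.7% of all. The consensus AP-1 site TGACTCA (4.46% of all), the cyclic AMP response element TGACGTCA (1.55%) and 1 spelling of the serum response element (0.0609%) were in 0 of the 7 sequences. Sites more than 250 bases upstream, or in other spellings, were not searched, so these zeros do not speak to them. TGACATCA, TTACGTCA and TATAAA were added to the search after these sequences had been seen, and Fosl1 had no entry.

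The 8 windows were rich in accessible regions, with 10.0 DMSO regions per 100 kb. The Fosb window was the densest at 20, followed by Fosl1 at 14.5, Junb at 13.6 and Jund at 10.0 per 100 kb. Atf3 had 7.69, Fos 7.27, Jun 5.45 and Fosl2 3.57. Tiles of 110 kb across the genome held a median of 1 DMSO region, and 79.8% of tiles had fewer than Fosl2 when its count is set to that length. These tiles span the genome whatever their gene content, and windows around other genes were not compared. Pileup below is the number of sequence tags stacked at a summit, and local background is the tag level around it that the authors' peak caller compared it with. Both were recovered from the deposited fold enrichment and p under the caller's default formulas, as a description. The regions of the windows were high in pileup and low in fold enrichment for the list. Their median pileup was 220 against 129 in all DMSO regions, their median local background 27.9 against 9.17, and their median fold enrichment 8.29 against 13.0.

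**Figure D1:**
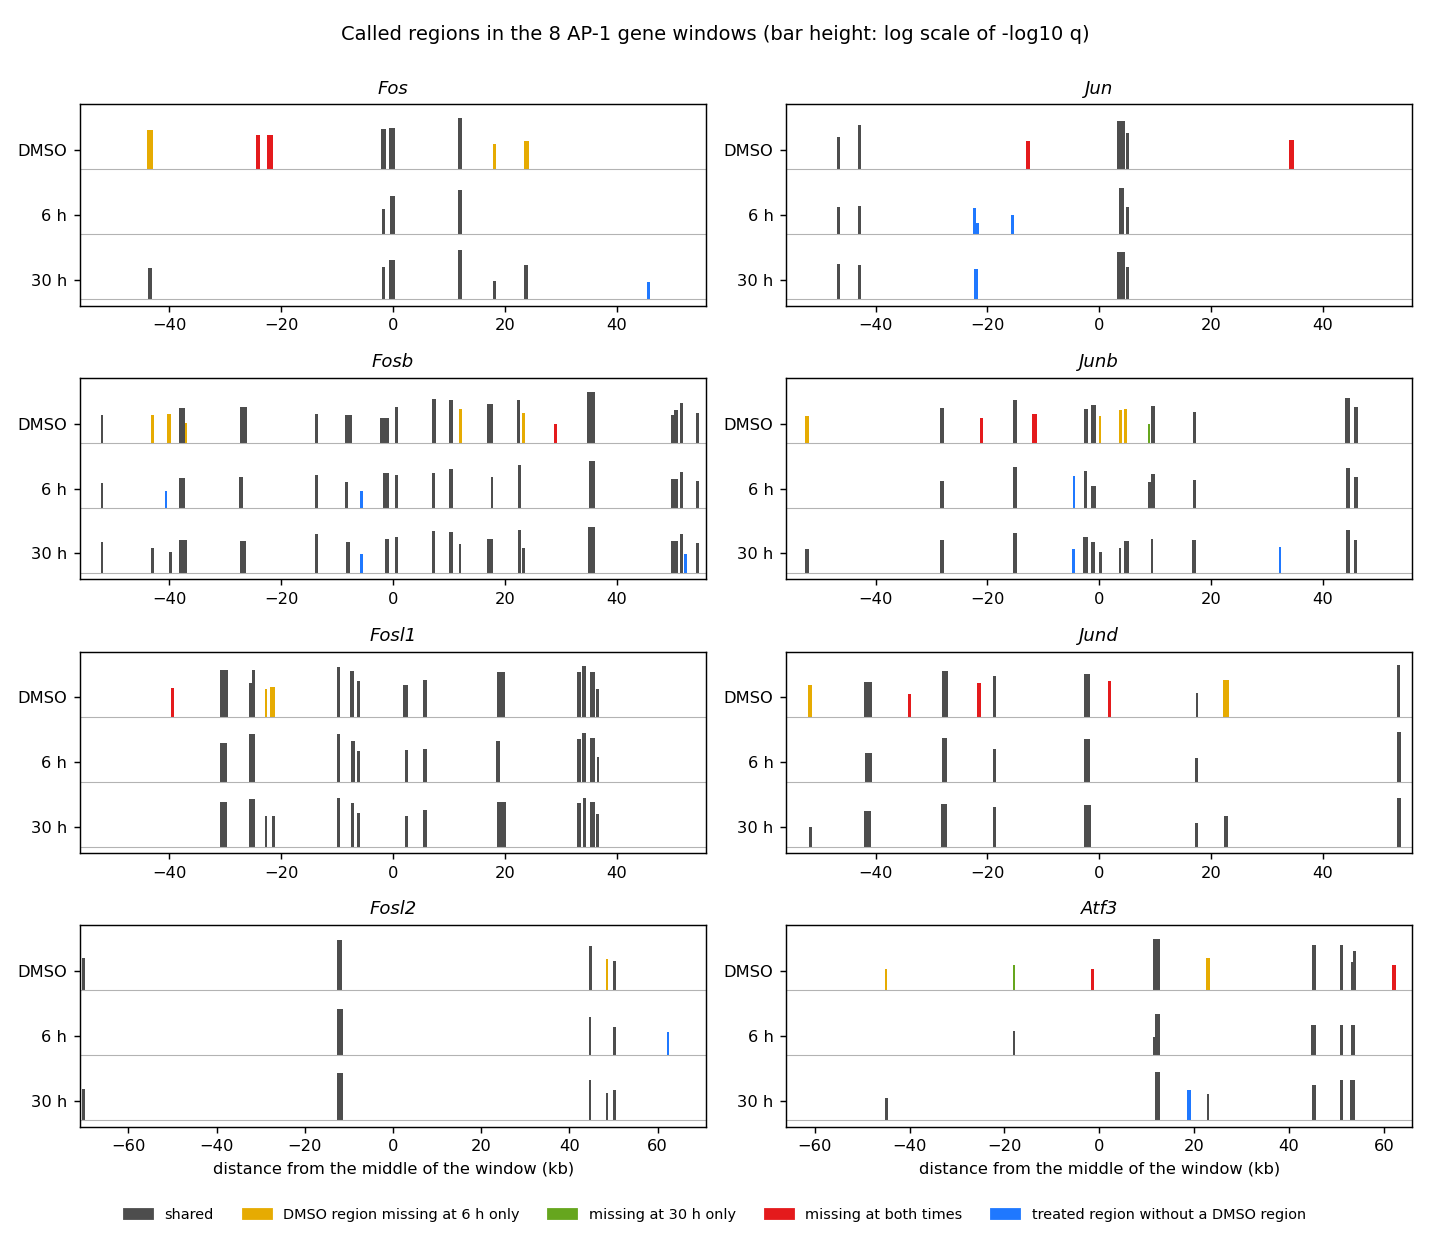
Called regions in each window for the 3 lists, by distance from the middle of the window in kb. Bar height follows the log of each region's -log10 q (values under 10 drawn as 10), gray bars are shared regions, and colours mark DMSO regions missing after treatment and treated regions without a DMSO region. The Fosb row is dense and mostly gray, and 5 of the 8 DMSO bars of Fos have no bar at 6 h.

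A DMSO region was counted as missing when no region of the treated list overlapped it by 1 bp, which means not called rather than closed. At 6 h 32 of 93 were missing, 34.4% (exact 95% interval 24.9 to 45.0%), beside 43.6% of all DMSO regions. At 30 h 15 of 93 were missing, 16.1% (9.32 to 25.2%), beside 26.1% of all. At both times 13 were missing, 14.0% (7.66 to 22.7%), beside 23.7% of all. A further 19 were missing at 6 h only and 2 at 30 h only, beside 19.9% and 2.33% of all, and 59 were called at both times, 63.4% beside 54.1%. These intervals cover counting error and treat regions as independent, which neighbours in a window are not. Strong regions go missing less often, so each region was also given the share missing in its decile of -log10 q among all DMSO regions. Summed over the 93, those shares came to 37.6 missing at 6 h and 21.4 at 30 h, against the 32 and 15 counted. No such sum was made by pileup, on which these regions were high for the list. Of all DMSO regions with pileups between 181 and 256, a range that includes the windows' median of 220, 19.9% were missing at 6 h. At 30 h 7.65% of them were. Whether the windows lost fewer regions than others of like pileup was not tested. The lower share in the windows was not seen with lists of equal length, each ranked on fold enrichment. There 10 of 33 (30.3%) were missing at 6 h and 8 of 33 (24.2%) at 30 h, beside 30.7% and 23.5% of all.

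By family, without a test, 15 of 51 regions of the Fos family (29.4%) were missing at 6 h and 4 (7.84%, 2.18 to 18.9%) at 30 h, where the deciles of -log10 q gave 19.7 and 11. In the Jun family 13 of 32 (40.6%) were missing at 6 h and 8 (25%, 11.5 to 43.4%) at 30 h. There the deciles gave 13.1 and 7.26, so its counts were close to those of all regions of like -log10 q. Neither family was matched by pileup. Their median pileups were 224 and 220.5. Of all DMSO regions with pileups between 181 and 256, 19.9% were missing at 6 h and 7.65% at 30 h. In the Atf3 window 4 of 10 were missing at 6 h and 3 of 10 at 30 h. Within the Fos family the Fos window had the highest share missing at 6 h, 5 of 8, and the others lay between 3 of 16 for Fosl1 and 6 of 22 for Fosb. With 5 to 22 regions per window the exact intervals of all 8 windows overlapped each other at 6 h, and at 30 h as well. Under stricter lists single windows moved further: with a score of 1000, 0 of the 5 remaining Atf3 regions were missing at either time.

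**Figure D2:**
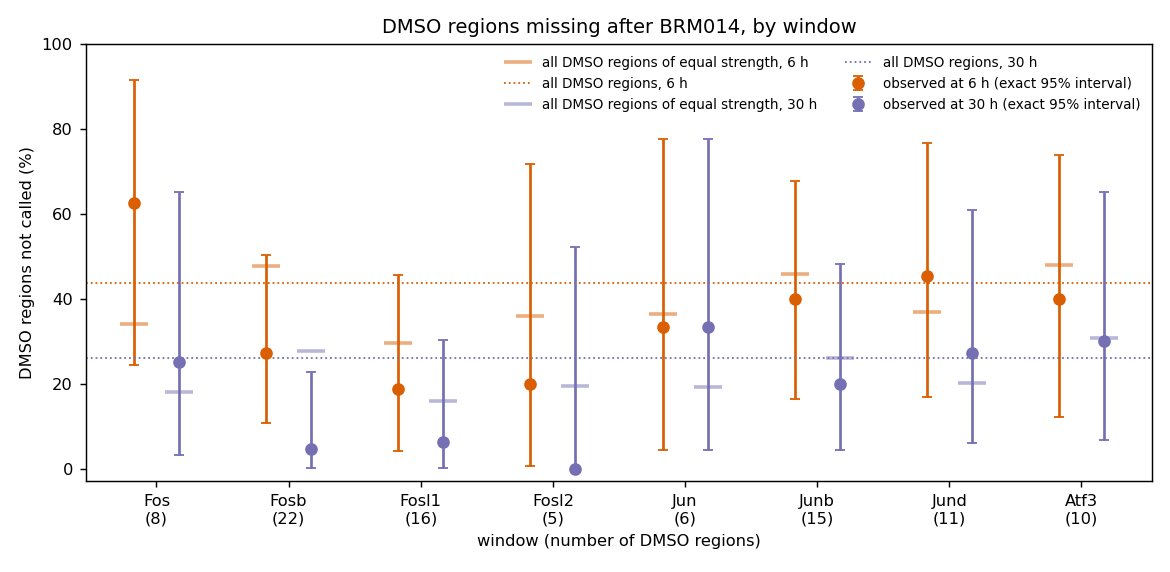
Percentage of DMSO regions not called at 6 h (orange) and 30 h (purple) in each window, with the number of DMSO regions in parentheses. Points are observed shares with exact 95% intervals, short bars are the shares of all DMSO regions in the same deciles of -log10 q, and dotted lines are the shares of all DMSO regions (43.6% and 26.1%). Fos lies highest at 6 h with 62.5%, and Fosb, Fosl1 and Fosl2 lie lowest at 30 h, between 0 and 6.25%.

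For pileups, the value expected in a treated list was the DMSO pileup scaled by list depth, taken from the lowest local background of each list (3.37 in DMSO, 2.12 at 6 h and 2.72 at 30 h). The found pileup was the highest in any overlapping region, and 0 where the region was missing. Over the 93 regions the median of found over expected was 0.762 at 6 h (order-statistic 95% interval 0.437 to 0.945) and 0.936 at 30 h (0.875 to 1.03). Over all DMSO regions it was 0.406 and 0.821. Among regions still called the medians were 1.05 and 1.01, beside 0.855 and 0.985 for all. The found pileup exceeded the expected one in 32 of 93 at 6 h and 43 of 93 at 30 h, beside 19.8% and 35.5% of all, and at both times in 28, beside 15.1%. Intervals beside single ratios below are exact, from both pileups, and cover counting error only.

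**Figure D3:**
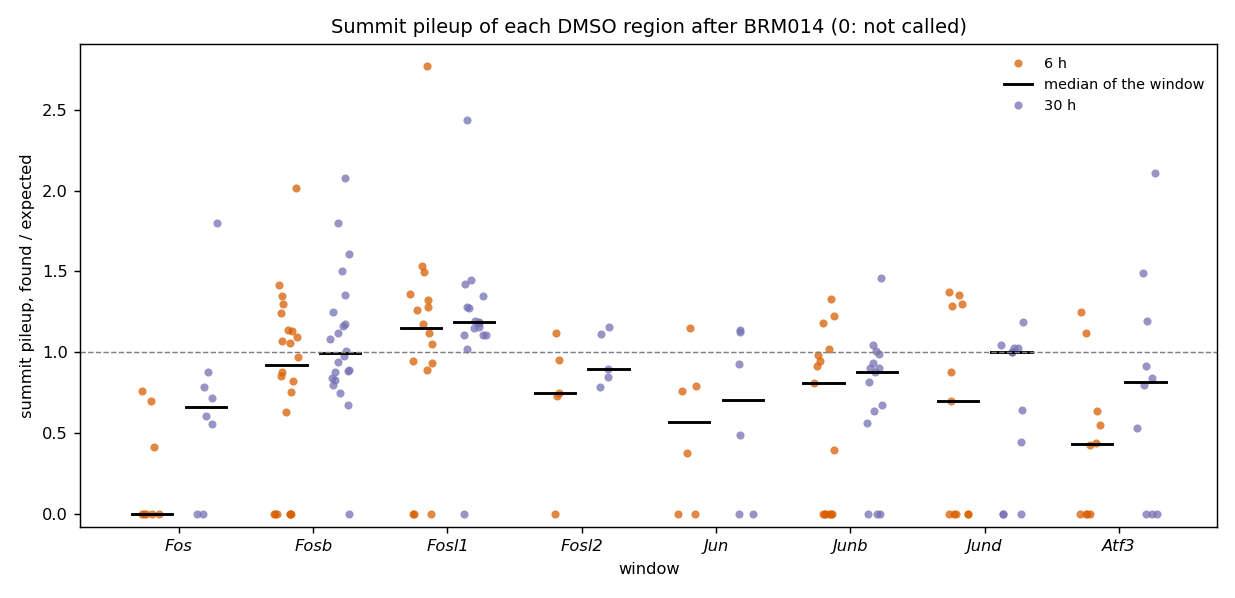
Found over expected summit pileup of each DMSO region at 6 h (orange) and 30 h (purple), by window, with missing regions at 0, window medians as black bars and equality as a dashed line. The 3 Fos regions still called at 6 h all lie below 1, whereas 10 of 16 Fosl1 regions lie above it.

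Fos encodes the founding member of its family, a textbook immediate early gene. Its window on chromosome 12 held 8 DMSO regions, of which 3 were called at 6 h and 6 at 30 h. The strongest, from 86826601 to 86827359, had a -log10 q of 552, 17.6-fold enrichment and a pileup of 654 in DMSO. Its pileup was 288 at 6 h and 463 at 30 h, where 412 and 528 were expected, ratios of 0.699 (0.606 to 0.804) and 0.877 (0.777 to 0.989). The region at the middle of the window, from 86814303 to 86815311, had pileups of 424, 203 and 268, ratios of 0.760 and 0.783. The neighbouring one from 86812897 to 86813703 had pileups of 371, 97 and 182, ratios of 0.415 (0.328 to 0.520) and 0.608 (0.506 to 0.728). All 3 regions called at both times were thus below expectation at both. Such ratios were common on this scale. By -log10 q the 3 lay in deciles 8 and 10, where the medians over all DMSO regions were 0.659 and 0.818 at 6 h. At 30 h those medians were 0.886 and 0.927. A pair of regions at -22.0 and -24.4 kb from the middle of the window, from 86792541 to 86793450 and from 86790443 to 86791200, had DMSO pileups of 321 and 220 and was missing at both times. Of all DMSO regions with pileups between 256 and 362, 1.96% were missing at both times, and of those between 181 and 256, 6.31% were. By -log10 q (99.2 and 94.7) the pair lay in decile 6, where 15.3% of all were missing at both times. The other 3, among them one from 86770987 to 86772034 with a pileup of 190, were missing at 6 h only. Of these, the region from 86838335 to 86839277 had a higher pileup at 30 h, 116, than in DMSO, 80, a ratio of 1.80 (1.34 to 2.42).

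Fosb encodes a Fos protein that is likewise induced early. Its window on chromosome 7 held 22 DMSO regions, with 16 called at 6 h and 21 at 30 h. In it 6 regions (27.3%) were missing at 6 h, against 10.5 expected from their deciles of -log10 q, and 1 (4.55%) at 30 h, against 6.09. They were not matched by pileup, of which the median was 176.5. Of all DMSO regions with pileups between 128 and 181, 35.5% were missing at 6 h and 15.8% at 30 h. Between 181 and 256 these shares were 19.9% and 7.65%. The strongest region, from 19929760 to 19931058 with a -log10 q of 503 and 17.5-fold enrichment, had pileups of 597, 411 and 400 in DMSO, at 6 h and at 30 h. It lay at 1.09 of expectation at 6 h (0.962 to 1.24) and at 0.830 at 30 h (0.729 to 0.944). Near the middle of the window a broad region with 5 summits, from 19892612 to 19894224, had a pileup of 178 in DMSO, 226 at 6 h and 231 at 30 h. Despite the shallower treated lists these raw pileups were above that of DMSO, ratios of 2.02 (1.65 to 2.47) and 1.61 (1.32 to 1.97). The region from 19881181 to 19881516 had pileups of 120, 102 and 174, ratios of 1.35 (1.03 to 1.77) and 1.80 (1.42 to 2.29). The strongest region missing at 6 h, from 19906802 to 19907179, had a pileup of 286 in DMSO and 173 at 30 h. The only one missing at 30 h, from 19923874 to 19924320, was weak, with a pileup of 48, and was missing at 6 h too.

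Fosl1 encodes Fra-1, a Fos protein prominent in invasive epithelial and mesenchymal cells. Its gene-dense window on chromosome 19 kept 13 of 16 regions at 6 h and 15 of 16 at 30 h. Median found over expected was 1.15 at 6 h (0.890 to 1.36) and 1.18 at 30 h (1.11 to 1.35), the highest of the 8 windows at each time. All 15 regions called at 30 h were above expectation. So was the local background of all 15 at that time, scaled by depth in the same way. Its median of found over expected was 1.26 at 6 h and 1.18 at 30 h. Whether the pileups rose beyond this background was not tested. The strongest, from 5488856 to 5489519 with a -log10 q of 487, had pileups of 842, 701 and 753, ratios of 1.32 (1.19 to 1.46) and 1.11 (1.0 to 1.22). The region with the highest fold enrichment, 13.6, from 5473505 to 5474974, had pileups of 357, 236 and 344, ratios of 1.05 and 1.19. The region from 5447375 to 5448032, left of the middle of the window, had pileups of 571, 340 and 509, ratios of 0.945 (0.824 to 1.08) and 1.10 (0.978 to 1.25). The 2 DMSO regions from 5429321 to 5429587 and from 5429700 to 5430355 were joined into 1 region in both treated lists. The larger had a pileup of 578 in DMSO, 558 at 6 h and 630 at 30 h, ratios of 1.53 (1.36 to 1.72) and 1.35 (1.20 to 1.51). For the smaller, ratios of 2.77 and 2.44 came from the summit of its neighbour, and treated summits inside its own interval gave 1.36 and 1.09. The region missing at both times, from 5415232 to 5415803, had a pileup of 67. The strongest of the pair missing at 6 h only, from 5432912 to 5433853, had pileups of 224 in DMSO and 230 at 30 h.

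Fosl2 encodes Fra-2. Its window on chromosome 5, the sparsest, held 5 DMSO regions, with 4 called at 6 h and all 5 at 30 h. One of them, from 32379426 to 32380134, only touched the edge of the window. The strongest, from 32437336 to 32438517 with a -log10 q of 476, had pileups of 667, 401 and 482, ratios of 0.954 (0.841 to 1.08) and 0.895 (0.795 to 1.01), so both intervals included expectation. The region with the highest fold enrichment, 16.7, from 32494347 to 32495021, had pileups of 316, 149 and 200, ratios of 0.749 (0.612 to 0.912) and 0.784 (0.653 to 0.939). The region missing at 6 h, from 32498186 to 32498735, had a pileup of 145 in DMSO and 99 at 30 h, a ratio of 0.846 (0.648 to 1.10).

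Jun encodes the central partner of the Fos proteins. Its window on chromosome 4 held 6 DMSO regions, and the same count, 4, was called at 6 h and at 30 h. Near the middle, the strongest region from 94718194 to 94719594 had 3 summits, a -log10 q of 397 and pileups of 634, 458 and 576. It was at or just above expectation, with ratios of 1.15 (1.01 to 1.3) and 1.13 (1.0 to 1.26). Its neighbour from 94719828 to 94720202 had pileups of 323, 155 and 241, ratios of 0.762 (0.625 to 0.925) and 0.924 (0.779 to 1.10). In contrast, the region with the highest fold enrichment of the window, 17.1, from 94671825 to 94672381 at -42.9 kb from the middle, had pileups of 311, 74 and 123. These were 0.378 (0.289 to 0.488) and 0.490 (0.394 to 0.606) of expectation, and their intervals lay below those of the strongest region at both times. The region nearest to it, from 94668135 to 94668484, had pileups of 143, 71 and 131, ratios of 0.788 and 1.13. Both regions missing at both times were weak. The stronger, from 94748990 to 94749746, had a pileup of 73, and the other, from 94701944 to 94702580, one of 63. Of all DMSO regions with pileups between 64.0 and 90.5, 36.9% were missing at both times.

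Junb encodes a Jun protein that can also restrain Jun itself. In its window on chromosome 8, 9 of 15 DMSO regions were called at 6 h and 12 at 30 h. Regions close to the middle combined high pileups with low fold enrichment, and held the 4 highest local backgrounds of the 93, up to 139. From 87502189 to 87502920 the pileups were 409, 262 and 332, ratios of 1.02 (0.867 to 1.19) and 1.01 (0.867 to 1.17). Directly beside it, from 87503432 to 87504499, the pileups were 513, 128 and 263, ratios of 0.396 (0.324 to 0.482) and 0.635 (0.545 to 0.738). These neighbours thus differed from each other at both times by more than their counting intervals. Further regions from 87504966 to 87505289, from 87508448 to 87509005 and from 87509355 to 87510013 had DMSO pileups of 348, 355 and 323 and were missing at 6 h. All 3 were called again at 30 h, with pileups of 189, 161 and 213, ratios of 0.673, 0.562 and 0.817. Of all DMSO regions with pileups between 256 and 362, 9.87% were missing at 6 h. By -log10 q, however, the 3 lay in deciles 3, 5 and 6, where 71.2%, 49.7% and 38.6% of all were missing. Away from the middle, the strongest region, from 87548974 to 87549843 with a -log10 q of 288, had pileups of 356, 212 and 269, ratios of 0.945 and 0.936. The region with the highest fold enrichment, 19.8, from 87476536 to 87477202, had pileups of 110, 56 and 93, ratios of 0.808 and 1.05. The strongest region missing at both times, from 87493008 to 87493773, had a pileup of 133. A region from 87513787 to 87514023 with a pileup of 117 in DMSO and 98 at 6 h was missing at 30 h only.

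Jund encodes the Jun protein with the steadiest expression. Of 11 DMSO regions in its window on chromosome 8, 6 were called at 6 h and 8 at 30 h. The strongest, from 73278235 to 73278854, had the highest fold enrichment of the 93, 24.7, a -log10 q of 529 and pileups of 533, 436 and 432, ratios of 1.3 (1.14 to 1.48) and 1.0 (0.882 to 1.14). The region from 73222193 to 73223393, 2 summits near the middle, had pileups of 433, 369 and 358, ratios of 1.35 and 1.02. To its right, on the other side of the middle, a single summit from 73226674 to 73227004 with a pileup of 283 was missing at both times, which held for 1.96% of all DMSO regions with pileups between 256 and 362 and for 15.3% of its decile of -log10 q. The region from 73203109 to 73203878, with 3 summits and a pileup of 164, was missing at both times as well. The strongest region missing at 6 h, from 73247195 to 73248116, had a pileup of 150 in DMSO and 78 at 30 h, a ratio of 0.644 (0.484 to 0.852).

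Atf3 encodes a stress-induced ATF protein that pairs with Jun. Its window on chromosome 1 held 10 DMSO regions, with 6 called at 6 h and 7 at 30 h. The strongest, from 193006279 to 193007805 with 4 summits, a -log10 q of 529 and a pileup of 717, was split into 2 regions at 6 h, the only DMSO region of the 61 kept at that time to have 2 partners (1.24% of all kept). At 30 h 0 of 78 kept regions had 2 partners, beside 1.41% of all kept. Its pileup was 247 at 6 h and 486 at 30 h, where 452 and 579 were expected, ratios of 0.547 (0.471 to 0.633) and 0.840 (0.747 to 0.944). Among the 9 regions of the 8 windows in the strongest decile of -log10 q this was the lowest ratio at 6 h. The 9 ran from 0.547 to 1.32 at 6 h, with a median of 1.09 beside 0.818 for that decile of all regions, and none of them was missing at either time. The region with the highest fold enrichment of the window, 19.5, from 193039748 to 193040709, had pileups of 305, 84 and 131, ratios of 0.437 (0.339 to 0.558) and 0.532 (0.430 to 0.655). The region from 193045793 to 193046346 had pileups of 417, 112 and 268, ratios of 0.426 (0.343 to 0.526) and 0.796 (0.680 to 0.930). The 3 strong regions were thus lower at 6 h than at 30 h on this scale, as were 70.3% of all regions called at both times. For the region from 193039748 to 193040709 the intervals of the 2 times overlapped. Not all of the window was below expectation. Ratios reached 1.25 at 6 h and 2.11 at 30 h, and 2 and 3 of the 10 DMSO regions were above expectation. The 1.25 rested on low pileups, 52 in DMSO and 41 at 6 h. The 2.11 came from a treated region that joined DMSO regions, from 193047927 to 193048991, with a pileup of 272. At 6 h it ran from 193047952 to 193048979, with a pileup of 113. The joined DMSO regions received the same treated pileup, so a ratio there can come from the summit of a neighbour. The remaining regions were weaker. The strongest missing at 6 h, from 193017545 to 193018330, had a pileup of 108 in DMSO and 80 at 30 h. The region from 192976868 to 192977272, with pileups of 52 and 41, was missing at 30 h only, and the strongest missing at both times, from 193056592 to 193057605, had a pileup of 52.

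Local background gave a further measure of these surroundings, scaled by depth in the same way and available for regions still called. It comes from the same tags as the pileups. Regions close together can share it, and DMSO regions joined after treatment received the same treated value. The values within a window are therefore not independent. In the Fos window the 3 values of found over expected were 0.419, 0.460 and 0.581. In the Atf3 window 5 of 6 values lay between 0.496 and 0.583. In the Fosl1 window the 6 h values ran from 0.897 to 1.42 with a median of 1.26, and at that time they did not overlap those of Fos or, that one Atf3 value apart, of Atf3. Near the middle of the Junb window the background was 119 in DMSO, 37.3 at 6 h and 66.5 at 30 h, at the region from 87502189 to 87502920, ratios of 0.499 and 0.694. The pileup of that same region was at expectation, so its fold enrichment was 3.43 in DMSO, 6.87 at 6 h and 4.93 at 30 h. Over the 61 regions kept at 6 h the background was below expectation in 35, beside 71.6% of all kept regions, and over the 78 kept at 30 h in 44, beside 56%. The medians were 0.921 and 0.929, beside 0.844 and 0.981 for all. At 30 h 0 of 15 Fosl1 values were below expectation, and 5 of 6 Fos values were, but the ranges overlapped, 1.01 to 1.41 for Fosl1, 0.512 to 1.16 for Fos and 0.628 to 1.61 for Atf3.

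**Figure D4:**
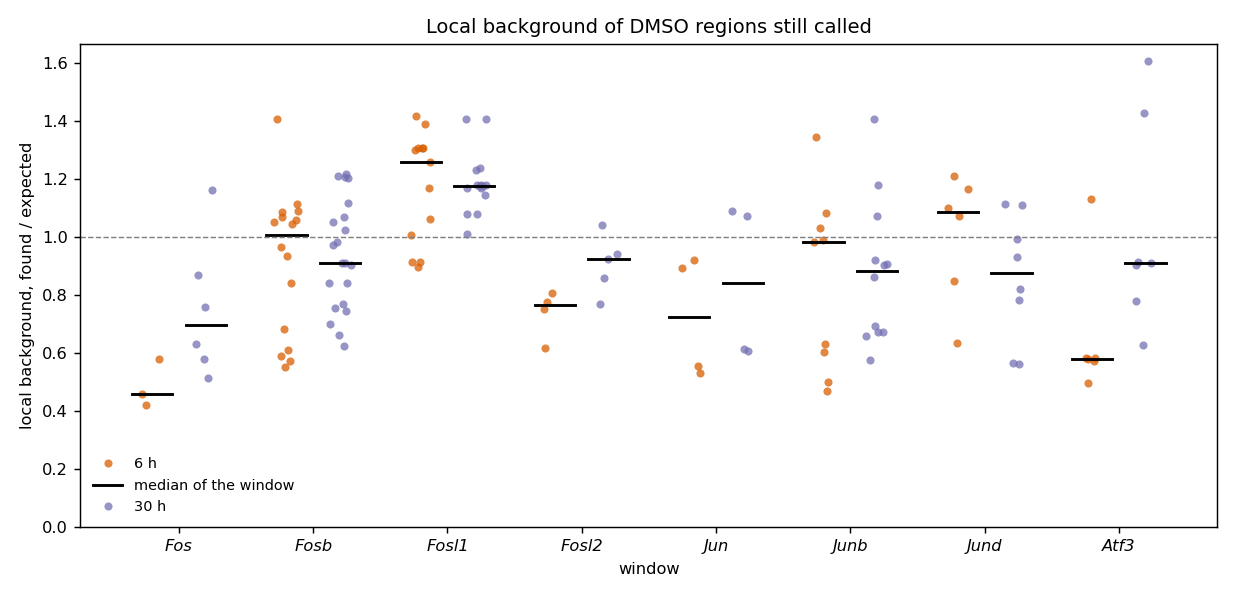
Local background found over expected for DMSO regions still called at 6 h (orange) and 30 h (purple), by window, with window medians as black bars and equality as a dashed line. At 6 h the Fos values (0.419 to 0.581) lie below all Fosl1 values (0.897 to 1.42).

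Regions without a DMSO counterpart were few. They numbered 7 of 65 at 6 h, 10.8% (4.44 to 20.9%) beside 7.42% of all 6 h regions, and 7 of 81 at 30 h, 8.64% (3.55 to 17.0%) beside 17.9% of all 30 h regions. The deciles of -log10 q gave 3.17 and 9.32. With lists of equal length the order at 30 h turned, to 26.5% in the windows beside 23.3% of all. Of the 7 at 6 h, 4 had a partner in the 30 h list, beside 60% of all new 6 h regions. Of the 7 at 30 h, 3 had one in the 6 h list, beside 16.8% of all new 30 h regions. The Jun window had the most at 6 h, 3 of 7. There a region from 94692430 to 94692954 and a weaker one from 94693043 to 94693324 at 6 h corresponded to 1 region from 94692600 to 94693370 at 30 h. The fold enrichment was 12.8 for the larger at 6 h and 18.6 at 30 h, the highest of all new regions in the windows, with pileups of 53 and 68. The nearest DMSO region was 8574 bp from the 30 h region. Another 6 h region, from 94699325 to 94699637 with a pileup of 34, had no call at 30 h.

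In the Junb window a region was called from 87500264 to 87500711 at 6 h and from 87500094 to 87500715 at 30 h, 1478 and 1474 bp from the nearest DMSO region. Its pileups of 200 and 185 were the highest among the new regions, and correspond to 317 and 229 at the depth of the DMSO list. New regions were rare at such pileups, 0.210% of 2380 regions of the 6 h list between 181 and 256, and 0.616% of 4223 regions of the 30 h list in the same range. By -log10 q (77.6 and 33.5) they were less so, with 1.43% new in its decile at 6 h and 32.5% at 30 h. Its local background was 35.6 at 6 h and 62.3 at 30 h, while that of its DMSO neighbour named above was 119, and the part of this in the absence of a DMSO call was not tested. A second Junb region, from 87537154 to 87537466 with a pileup of 50, was new at 30 h only. The Fosb window had one region new at both times, from 19889205 to 19889470 at 6 h, with pileups of 97 and 113. It also had weak regions from 19854297 to 19854493 at 6 h and from 19947207 to 19947426 at 30 h, which lay 154 and 365 bp from DMSO regions. In the Atf3 window a region with 3 summits from 193013526 to 193014356 was new at 30 h, with a fold enrichment of 10.2, a pileup of 99 and no 6 h call. Fosl2 had one at 6 h, from 32512000 to 32512551 with a pileup of 39. Fos had one at 30 h, from 86860551 to 86860856 with a pileup of 28, in a range where 67.4% of 30 h regions were new. Fosl1 and Jund had 0 new regions at either time, of 12 and 6 regions at 6 h and 14 and 8 at 30 h.

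Regions that were kept were on the median slightly narrower in the treated lists, as did kept regions in general. Treated width over DMSO width had a median of 0.945 at 6 h (0.909 to 0.998) and 0.971 at 30 h (0.928 to 1.0), beside 0.914 and 0.952 for all kept regions. At 6 h 39 of 61 were narrower, beside 75.2% of all, and at 30 h 46 of 78, beside 66.7%. Joining was seen at Fosb, Fosl1 and Atf3. Of the 65 regions at 6 h, 3 covered 2 or more DMSO regions, beside 0.606% of all 6 h regions, and of the 81 at 30 h, 4 did, beside 0.518% of all 30 h regions. By summit number, 15 of 52 DMSO regions with 2 or more summits and 17 of 41 with 1 summit were missing at 6 h, beside 30.7% and 57.1% of all DMSO regions with as many summits. At 30 h the counts were 6 and 9, beside 17.1% and 35.4%. Among the 59 regions called at both times the ratio of found over expected pileup was higher at 30 h than at 6 h in 37, beside 70.3% of all regions called at both times.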

How the data were processed

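Chromatin accessibility of 6 samples was deposited as 3 peak lists, each made from both replicates of a group, per the labels. The submitters' processing notes name MACS2 2.1.2 and the build mm9. For the aligner, read filters, transposase shift and caller options the sources used here give nothing. Each entry has a score (540 to 1000), a fold enrichment ratio, -log10 p and -log10 q and a summit offset, as the authors deposited them. Read totals were not used, so depth is relative only.

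Entries sharing an interval were merged, keeping their highest values. Whole-number pileups and local backgrounds were solved from fold enrichment and p under the caller's default formulas, matching the deposited -log10 p within 0.001 for 100% of entries. These formulas and the use of the lowest background as depth are assumptions. If the depth were set instead from the strongest decile of regions, all ratios would be divided by 0.818 at 6 h and 0.927 at 30 h. Where 1 treated region covers 2 DMSO regions, both received its highest pileup. The steps were tested on simulated data. Shares have exact binomial intervals and medians order-statistic intervals, at 95%. Analyses used Python 3.11.15, numpy 2.4.6, pandas 2.3.3 and scipy 1.17.1.

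The members, windows and tests were chosen with earlier results of these data known. Named in each window were the DMSO regions with the highest -log10 q and fold enrichment, the strongest not called at 6 h, at 30 h or at either, and every new region. Others, chiefly near the middle of a window, were named after their values were seen, and local background was added then. Other AP-1 network genes could not be placed without mm9 annotation and were not analysed here. Upstream sequences are RefSeq's, build GRCm38.p6, with 7 of 8 genes matched by symbol.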

Additional observations from a re-analysis of the deposited data

How the results depend on the processing

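Over the 93 regions together, the shares missing and the median widths stayed within their 95% intervals under every alternative run. These were an overlap of at least 50%, the summit rule, a -log10 q of at least 5, a score of 1000, lists of equal length, every entry counted, a distance of 500 bp, and windows narrowed by 25 kb or widened by 50 kb per side for the shares, and the window sizes and single partners for the widths. Shares of regions without a DMSO region did not. With a score of 1000 they were 2.27% at 6 h and 3.28% at 30 h (0.903% and 4.62% of all regions). With lists of equal length they were 64.6% and 26.5% (30.0% and 23.3% of all), because ranking on fold enrichment removes most DMSO regions of the windows (33 of 93 remained). Shares missing in single windows moved outside their intervals in 10 cases. With a score of 1000 these were Fosb at 30 h (0 of 19) and Atf3 at both times (0 of 5). With lists of equal length they were Fosb at both times (0 of 4), Fos at 30 h (0 of 2), Fosl2 at 6 h (0 of 3) and Fosl1 at 30 h (1 of 3). In narrowed windows they were Fosl1 at 30 h (0 of 11) and Fosl2 at 6 h (0 of 2). Over regions still called only, the median of found over expected pileup at 6 h was 1.05, since missing regions no longer count as 0. With depth from the strongest decile the medians were 0.931 at 6 h and 1.01 at 30 h. Summits inside the DMSO interval only, an alternative chosen after seeing the data, gave 0.762 and 0.936. The 7 strongest regions missing at both times, 1 in each window but Fosl2, stayed so under the 50%, summit and 500 bp rules, as did the 14 new regions except 2 when regions 500 bp apart counted as shared. Leaving out replicates could not be done. No paired analysis was possible because the 2 replicates of a group share 1 list.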
